A study of Rattus norvegicus with 62 samples.

Results

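Hearts of rats given 10 mg/kg rosiglitazone were compared with hearts of vehicle-treated rats 168 h after the last dose. The comparison used 10 of the 62 arrays of the series, 5 in each group, chosen by dose and time in the array titles. All rats were male Wistar rats, an outbred laboratory strain, and took rosiglitazone or vehicle by mouth daily for 14 days. Age is not given in the labels used here, and the labels do not say that each array holds the RNA of a separate animal. Where arrays share an animal, p-values reflect only how much these arrays scatter. The 6 arrays of the 80 mg/kg group at 168 h, and the 31 arrays of vehicle and 10 mg/kg at 6, 24 and 336 h, served for comparison. The arrays of 10 mg/kg at 168 h carry replicate numbers 2 to 6 and those of vehicle 1 to 5.

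Rosiglitazone is a thiazolidinedione, a glucose-lowering drug that binds and activates PPAR gamma. PPAR gamma is a nuclear receptor that pairs with RXR on DNA and switches on genes for fatty acid uptake, binding and storage, most strongly in fat cells. In the heart it is found at a low level, and its targets in capillary endothelium include proteins that carry fatty acids from blood to muscle.

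No probe set, a group of short probes for 1 transcript, passed the test between 10 mg/kg and vehicle at 168 h after adjustment. Of 18625 probe sets tested, 0 passed (0%) in limma, with adjusted p from Benjamini-Hochberg and a threshold of 0.05, and the smallest adjusted p was 0.0636. Unadjusted p was under 0.05 for 718 probe sets (3.86%), 357 higher at 10 mg/kg (1.92%) and 361 lower (1.94%). The groups did not overlap for 38 probe sets that were higher at 10 mg/kg (0.204%) and 37 that were lower (0.199%). Rbp7 and Gpihbp1, genes of lipid handling that were called at 80 mg/kg, lay between vehicle and 80 mg/kg in 4 of the 5 arrays at 10 mg/kg. Fabp5, another such gene, lay above the vehicle range in 1 array and below it in 1.

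One array stood apart for these genes. In replicate 4 of the 10 mg/kg group, Gpihbp1, Fabp4 and Aqp1 lay within the vehicle range and Rbp7 below it, whereas the other 4 arrays lay above the vehicle range for Rbp7, Gpihbp1 and Fabp4. The differences of these genes from vehicle are given with and without it. It was singled out by these same values, so the larger differences without it are no separate support. What sets it apart was not tested. Signal at the 3′ end of actin exceeded that at the 5′ end, a measure of RNA degradation, by 1.07 (log2) in this array, the highest of its group and within the range of vehicle, 0.71 to 1.09. The same measure for hexokinase was 2.54 in this array and 2.91 in replicate 5, both above the vehicle range of 1.44 to 2.35, and 1.49 to 1.60 in the other 3. The part of RNA quality in these differences was not tested.

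The promoters of Rbp7 and Aqp1 are printed because, of the 5 named genes called between 10 and 80 mg/kg at this time, Rbp7 had the largest rise at the higher dose and Aqp1 was the one that fell. Each sequence is the 250 bases before the gene's start in RefSeq's table for the GRCr8 build, read 5′ to 3′ on the gene's strand, and capitals mark TATAAA. The Rbp7 sequence lies at chr5:165177400-165177649 on the minus strand and the Aqp1 sequence at chr4:85812534-85812783 on the plus strand.
Rbp7: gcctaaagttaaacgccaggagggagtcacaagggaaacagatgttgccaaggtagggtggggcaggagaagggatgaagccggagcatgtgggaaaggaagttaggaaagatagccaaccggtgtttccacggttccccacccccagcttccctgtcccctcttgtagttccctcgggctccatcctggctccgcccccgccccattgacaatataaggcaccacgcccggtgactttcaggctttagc
Aqp1: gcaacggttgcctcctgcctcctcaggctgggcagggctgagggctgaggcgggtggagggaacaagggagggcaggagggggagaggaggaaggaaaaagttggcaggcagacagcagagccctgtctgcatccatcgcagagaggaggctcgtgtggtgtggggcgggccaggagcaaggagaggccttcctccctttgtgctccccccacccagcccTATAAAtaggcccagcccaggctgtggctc
TATAAA was found in the Aqp1 window at 30 bases upstream of the start, and in 12.9% of all 33469 promoters of that length, searched on both strands. The motif AGGTCA, a sequence many nuclear receptors recognise, was in neither window and in 14.1% of all promoters. Its direct repeat with 1 base between the copies, AGGTCANAGGTCA, was in 0.0508%. Of 5 genes looked up, Rbp7, Aqp1 and Plpp1 matched an entry and Gpihbp1 and Fabp4 did not.

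Rbp7 codes for a retinoid-binding protein of the cellular fatty acid-binding family, found in adipose tissue and in endothelium. Its log2 signal was 7.93, 7.79, 7.56, 7.78 and 7.86 in the vehicle arrays. In the 10 mg/kg arrays it was 8.82, 9.02, 7.29, 8.81 and 9.76 for replicates 2 to 6. Replicate 4 lay below every vehicle array and the other 4 above all of them. The mean was 7.78 ± 0.14 (SD, n = 5) in vehicle and 8.74 ± 0.90 (SD, n = 5) at 10 mg/kg. The log2 difference was 0.96 ± 0.40 (SE), with a 95% interval of 0.15 to 1.76, a fold of 1.94. In limma the unadjusted p was 0.0206 and the adjusted p 0.9997, and an exact permutation test of the 10 arrays, two-sided, gave p = 0.0476. The smallest p that test can give with 5 against 5 is 0.00794. Without replicate 4 the difference was 1.32 and the adjusted p in limma 0.851, and without replicate 6, the highest array, the difference was 0.70.

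Gpihbp1 anchors lipoprotein lipase on the capillary wall, where triglycerides are broken down. The vehicle arrays had log2 signals of 7.33, 7.91, 7.97, 8.01 and 7.75. The 10 mg/kg arrays had 8.51, 8.88, 7.88, 8.50 and 8.68. All of these but replicate 4 lay above the highest vehicle array. The difference was 0.69 ± 0.27 (SE, log2) with a 95% interval of 0.16 to 1.23. The exact permutation p was 0.0317, the unadjusted p 0.0124 and the adjusted p 0.9997 in limma. Without replicate 4 the difference was 0.85 and the adjusted p 0.899, and with each array left out in turn it ran from 0.58 to 0.85.

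Fabp4 carries fatty acids inside fat cells and capillary endothelial cells. Its log2 signal was 11.84, 11.96, 11.70, 11.84 and 11.72 in vehicle and 12.08, 12.13, 11.71, 12.04 and 12.17 at 10 mg/kg. Replicate 4 again stood among the vehicle values, and the other 4 arrays stood above them. The difference was 0.22 ± 0.14 (SE, log2), with an exact permutation p of 0.0714 and an adjusted p of 0.9997 in limma. It was 0.30 without replicate 4, 0.18 without replicate 6 and -0.01 on the deposited scale, where all tested probe sets together had a median difference of -0.25.

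Aqp1, a water channel of endothelium and red cells, had log2 signals of 10.92, 10.90, 10.88, 11.05 and 10.99 in vehicle. At 10 mg/kg they were 10.64, 10.92, 11.03, 10.86 and 10.43. Replicates 2, 5 and 6 were below all vehicle arrays and replicates 3 and 4 within their range. The difference was -0.17 ± 0.13 (SE, log2), its 95% interval ran from -0.43 to 0.08, and the exact permutation p was 0.183. A dimmer probe set for the gene gave -0.22. The brighter one gave -0.23 without replicate 4 and -0.084 without replicate 6, the lowest array. In bulk RNA, fewer cells of a type and less RNA per cell cannot be told apart.

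The arrays of the series fell into 3 clusters of overall profile, drawn from the data and not from any label. Replicate 4 of 10 mg/kg shared a cluster with replicate 5 and with vehicle replicate 1. In the cluster that held 3 arrays of each group, the difference between 10 mg/kg and vehicle was 1.39 for Rbp7, 0.80 for Gpihbp1, 0.29 for Fabp4 and -0.32 for Aqp1 (log2). In the cluster with 1 vehicle array and 2 arrays of 10 mg/kg it was 0.13, 0.86, 0.03 and 0.02. These last values rest on replicate 4 and on vehicle replicate 1, which has the lowest Gpihbp1 and the highest Rbp7 of the vehicle arrays. For Rbp7 replicate 4, at 7.29, lay below that vehicle array, at 7.93, and replicate 5, at 8.81, above it. That cluster holds too few arrays of these groups at 168 h for a test. Of the same groups at 168 h, the third cluster held 1 vehicle array and none of 10 mg/kg. It also held every vehicle, 10 mg/kg and 80 mg/kg array at 336 h.

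**Figure D1:**
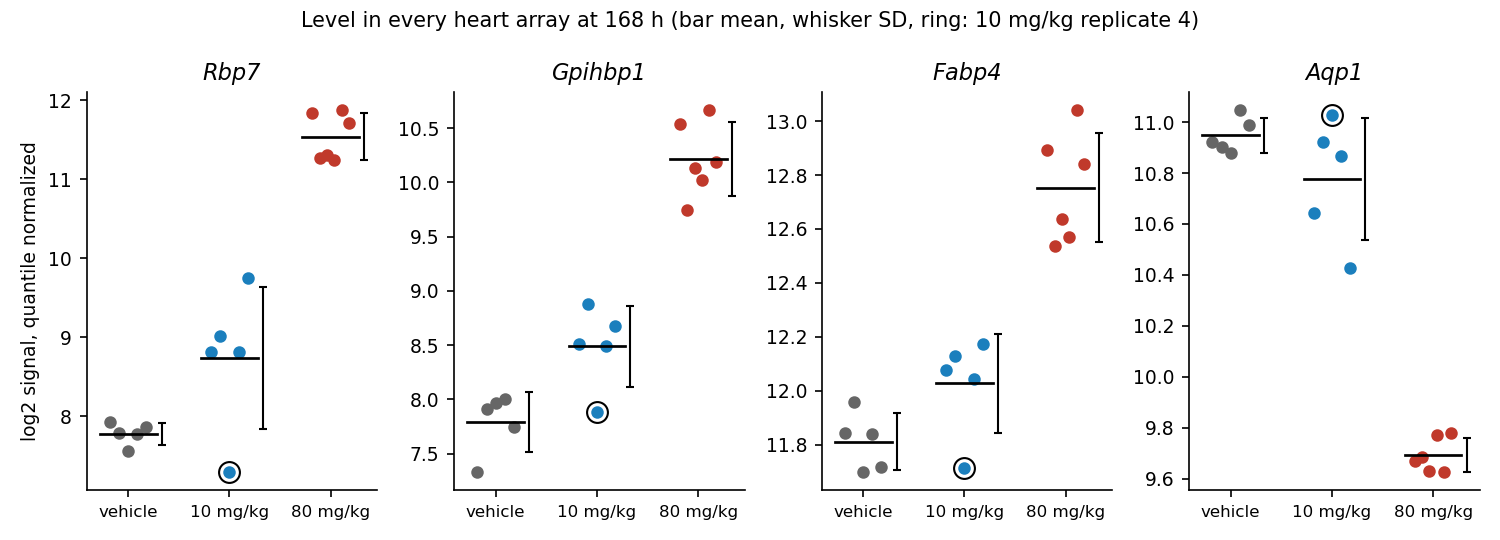
Log2 signal, quantile normalized, of Rbp7, Gpihbp1, Fabp4 and Aqp1 in every array at 168 h (y axis) for vehicle, 10 mg/kg and 80 mg/kg (x axis); each point is an array, the bar is the mean and the whisker the SD. The ringed point is replicate 4 of 10 mg/kg, at 7.29 for Rbp7 against 8.81 to 9.76 in the other 4, and the y axes do not start at 0.

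These 4 genes were chosen with their response to 80 mg/kg known, and both doses were set against the same vehicle arrays, so their values at 10 mg/kg are a description and no independent support. Set against the 80 mg/kg arrays, 7 probe sets differed between the doses at 168 h (0.0376% of those tested), 6 higher at 80 mg/kg (0.0322%) and 1 lower (0.00537%). Against vehicle, 80 mg/kg called 10 (0.0537%). Rbp7 was 11.54 ± 0.30 (SD, n = 6) at 80 mg/kg, 2.80 above 10 mg/kg on the log2 scale, a fold of 6.98, with an adjusted p of 1.53e-05 in limma. Its lowest 80 mg/kg array, at 11.24, stood above its highest 10 mg/kg array, at 9.76. Gpihbp1 was higher by 1.73 (adjusted p = 7.96e-05 in limma) and Fabp4 by 0.73 (adjusted p = 0.00404 in limma). Aqp1 was lower by 1.08 at 80 mg/kg than at 10 mg/kg: its log2 difference was -1.08, with an adjusted p of 7.73e-08 in limma.

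Plpp1, which codes for a lipid phosphate phosphatase, was the fifth named gene between doses. At 10 mg/kg it was 8.54 ± 0.20 (SD, n = 5), against 8.64 ± 0.14 in vehicle and 9.17 ± 0.27 (SD, n = 6) at 80 mg/kg. The difference between the doses was 0.63 (adjusted p = 0.00905 in limma), that of 10 mg/kg from vehicle -0.10, and a dimmer probe set had the opposite sign there, 0.09. Without replicate 4 of 10 mg/kg the calls between doses fell from 7 to 5. Fabp4 then had a difference of 0.65 (adjusted p = 0.0642 in limma) and Plpp1 0.57 (adjusted p = 0.0955 in limma), so both lost their calls, as did an unnamed probe set described next, and 4 of the 5 calls were among the 7. Rbp7 at 2.44, Gpihbp1 at 1.57 and Aqp1 at -1.02 remained called. Without replicate 1 of 80 mg/kg the calls were also 5.

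The other 2 probe sets called between the doses have no gene in the platform's annotation and were picked out after their values were seen. The first was 5.57, 5.59, 5.07, 5.76 and 5.97 in vehicle and 4.90, 4.59, 2.89, 3.89 and 3.94 at 10 mg/kg. All 5 arrays at 10 mg/kg lay below all vehicle arrays. Its difference from vehicle was -1.55 ± 0.30 (SE, log2), the smallest adjusted p of the comparison at 0.0636 in limma, and its mean at 10 mg/kg of 4.04 was under the filter level of 5.03. At 80 mg/kg its mean was 5.62, against 5.59 in vehicle. With each array left out in turn its difference ran from -1.76 to -1.26 and its adjusted p in limma from 0.0091 to 0.32, so that the call depended on the array. It passed without vehicle replicate 3 and without replicate 2 or 3 of 10 mg/kg. The second probe set was 8.50 ± 0.17 in vehicle, 7.78 ± 0.40 at 10 mg/kg (SD, n = 5 each) and 9.01 ± 0.58 (SD, n = 6) at 80 mg/kg, so that the doses lay on opposite sides of vehicle.

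The response to 10 mg/kg was then read at the other times, each with vehicle arrays of its own. No probe set was called at 6, 24 or 336 h (0% each), and unadjusted p was under 0.05 for 1196 (6.42%), 1088 (5.84%) and 676 (3.63%). No probe set showed a difference at 168 h that departed from that at 6, 24 or 336 h after adjustment in limma (0%), with 725 (3.89%), 931 (5%) and 569 (3.06%) at an unadjusted p under 0.05. The joint F test over the 4 times likewise called 0 (0%), with 875 unadjusted (4.7%). Across probe sets, which are not independent, the correlation of the 168 h difference with those at 6, 24 and 336 h was 0.09, -0.05 and 0.03.

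Rbp7 at 10 mg/kg stood above vehicle by 2.21, 0.77, 0.96 and 1.71 (log2) at 6, 24, 168 and 336 h. The adjusted p in limma was 0.0652 at 6 h and 0.414 at 336 h, so none of the times passed. Atrial muscle was uneven at 6 h: Myl7, the atrial light chain, was 7.13, 7.29, 5.49 and 12.29 (log2) in the vehicle arrays and 11.50, 6.08, 11.22, 12.22 and 9.32 at 10 mg/kg, and the atrial marker list had a median difference of 0.53. Its part in the 6 h values was not tested. The difference at 168 h minus that at 6 h was -1.25 ± 0.59 (SE, log2), and minus that at 336 h -0.75 ± 0.56, neither past the threshold. Gpihbp1 had 0.92, 0.39, 0.69 and 1.15, and Fabp4 0.63, 0.23, 0.22 and 0.21, in the same order of times. Aqp1 had -0.15, -0.06, -0.17 and -0.45. For these 4 genes the sign at 168 h was thus that at every other time, and no time was called.

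**Figure D2:**
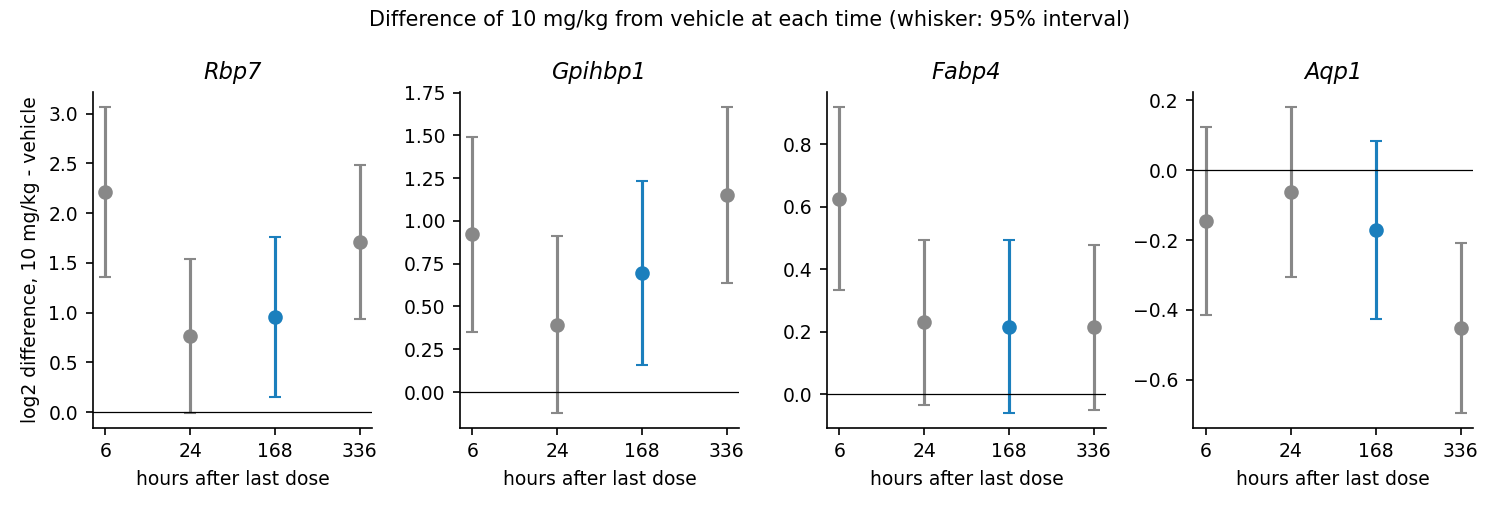
Log2 difference of 10 mg/kg from vehicle (y axis) at 6, 24, 168 and 336 h after the last dose (x axis, evenly spaced categories) for Rbp7, Gpihbp1, Fabp4 and Aqp1; points are fitted differences, whiskers 95% intervals and 168 h is in blue. The intervals at 168 h span 0.15 to 1.76 for Rbp7 and -0.43 to 0.08 for Aqp1, and each panel has its own y scale.

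In the list of lipid uptake and storage genes, which holds Rbp7, Gpihbp1 and Fabp4, no member passed the test. Of 28 genes listed 23 were tested, 9 had a higher mean at 10 mg/kg and 14 a lower one, 0 were called, and the median difference was -0.02 (log2), against 0.00 over all 10557 genes, of which 50.6% were higher. An unadjusted p under 0.05 was found for 4 of the 23, Rbp7, Gpihbp1, Lipe and Aqp7, and for 393 of all genes (3.72%). Cd36, which takes up fatty acids, had -0.02 ± 0.18 (SE, log2), and Lpl, lipoprotein lipase itself, -0.03 ± 0.07. Fabp5, another fatty acid-binding protein, had 0.12, and Plin2, which coats lipid droplets, -0.11 on one probe set and 0.12 on another. Aqp7, which carries glycerol, had a log2 mean of 10.62 in vehicle and 10.19 at 10 mg/kg, and its groups did not overlap. Its difference was -0.44 ± 0.18 (SE) with an unadjusted p of 0.0202. Groups that did not overlap in that direction were found for 21 of all genes (0.199%). Lipe, hormone-sensitive lipase, had 0.38 ± 0.17. For Angptl4, Plin1, Cidec, Adipoq and Ucp1 the mean signal lay below the filter.

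Genes of the fatty acid oxidation list were mostly lower at 10 mg/kg, by small amounts. Of 24 tested, 20 had a lower and 4 a higher mean, 0 were called, and the median was -0.11 (log2) against 0.00 over all genes. On the deposited scale the list's median was -0.33 against -0.25 over all tested probe sets. Decr1, which prepares unsaturated fatty acids for oxidation, was 12.09, 12.20, 12.06, 12.05 and 12.18 in vehicle and 11.76, 12.004, 12.10, 11.75 and 11.72 at 10 mg/kg. Replicate 4 alone lay within the vehicle range. The difference was -0.25 ± 0.14 (SE, log2), with an exact permutation p of 0.0317 and an adjusted p of 0.9997 in limma. It was -0.31 without replicate 4. Eci1, an enoyl-CoA isomerase, had -0.21 ± 0.09, and Acadm, which starts the oxidation of medium-chain fatty acids, -0.11 ± 0.07. Cpt1a and Cpt1b, which admit fatty acids to mitochondria, had -0.08 ± 0.14 and -0.03 ± 0.07.

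The same list had a median of -0.14 at 80 mg/kg at 168 h, against the same vehicle arrays. At 10 mg/kg its median was -0.02 at 6 h, 0.01 at 24 h and -0.12 at 336 h. The median was thus lower at 168 and 336 h than at 6 and 24 h, a difference that was not tested. The genes of oxidative phosphorylation were split, with 12 higher and 12 lower of 24 and a median of -0.00.

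**Figure D3:**
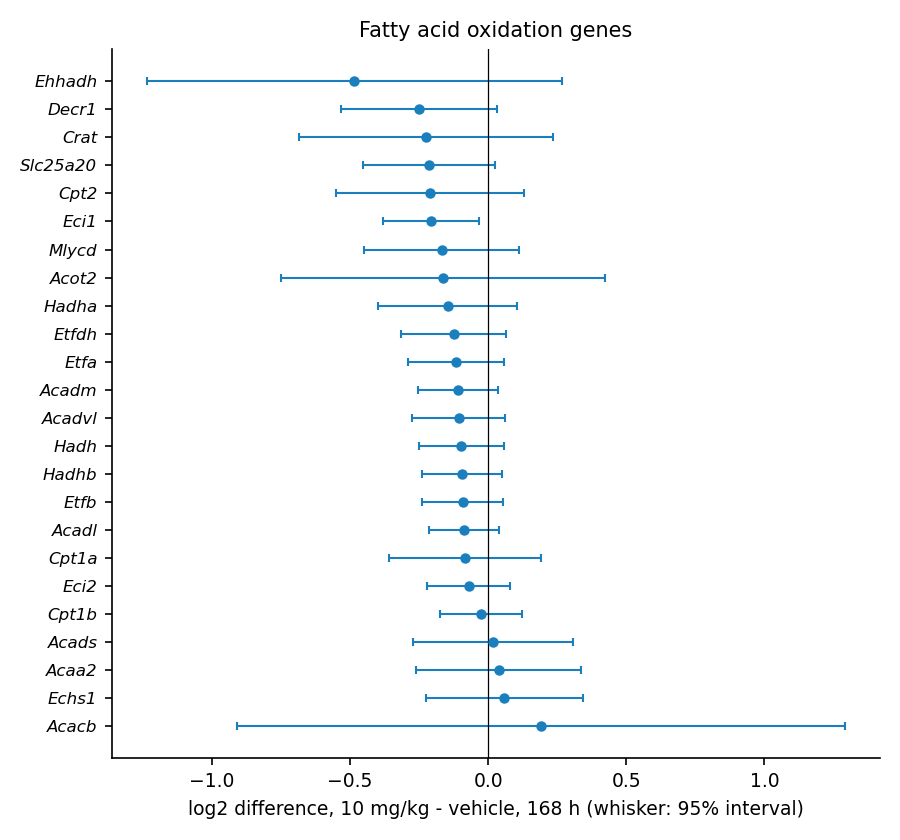
Log2 difference between 10 mg/kg and vehicle at 168 h (x axis) for each of the 24 tested fatty acid oxidation genes (y axis, ordered by difference); points are fitted differences and whiskers 95% intervals. 20 points lie left of 0 and 4 right of it, and only the interval of Eci1 leaves out 0.

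In the list of genes that PPAR alpha raises in fasting, 7 of 9 stood lower, with a median of -0.11 and 0 called. The list also holds Ppara itself and the coactivator Ppargc1a. Pdk4, Acot2, Cpt1a and Plin2 are counted in other lists here too, so the count is no separate result. Pdk4, which shuts off glucose oxidation, was 10.43, 10.74, 10.84, 10.44 and 11.28 in vehicle and 9.73, 10.31, 10.47, 10.37 and 10.50 at 10 mg/kg. The groups overlapped, although all 5 arrays at 10 mg/kg were under the vehicle mean. Its difference was -0.47 ± 0.25 (SE, log2), with an exact permutation p of 0.0556. Ucp3, a mitochondrial carrier protein, had -0.58 ± 0.45. The receptors themselves had 0.06 ± 0.44 for Ppara and -0.00 ± 0.22 for Pparg, values too uncertain to give a direction. Of 11 receptor and coactivator genes 4 were higher and 7 lower.

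Glucose uptake and glycolysis genes had a higher mean in 14 of 18 cases, with a median of 0.02 and 0 called; on the deposited scale the median was -0.16, against -0.25 over all tested probe sets. Slc2a4, the insulin-regulated glucose transporter, had 0.12 ± 0.13 (SE, log2), and Eno3, the muscle enolase, -0.14 ± 0.13 with groups that did not overlap. The unadjusted p of Eno3 was 0.285 in limma, and 21 of all genes (0.199%) were lower without overlap. In retinoid binding and metabolism 9 of 11 genes were higher, Rbp7 among them, and Cyp26b1 lowest. Cyp26b1, an enzyme that breaks down retinoic acid, was 7.62, 7.50, 7.23, 6.76 and 7.45 in vehicle and 6.93, 6.24, 6.91, 6.96 and 5.65 at 10 mg/kg. All 5 arrays were below the vehicle mean, and replicate 4 of vehicle fell among them. The difference was -0.77 ± 0.26 (SE, log2), with an exact permutation p of 0.0317 and an adjusted p of 0.9997 in limma. At 6, 24 and 336 h it was -0.19, -0.15 and -0.63.

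No gene of cardiac stress or structure was called. Nppa and Nppb, the natriuretic peptides, had 0.14 ± 0.63 and 0.07 ± 0.23 (SE, log2), and Myh7, the slow myosin heavy chain, 0.26 ± 0.38. The spread of Nppa, 9.34 to 11.08 in vehicle and 9.27 to 11.78 at 10 mg/kg, limits what can be seen for it. Ccn2 and Col1a1, a matrix-associated growth factor and a collagen, had 0.16 ± 0.19 and 0.06 ± 0.22. The extracellular matrix list had 19 of 33 members higher and a median of 0.05, the sarcomere list 11 of 17 and 0.02, and 0 were called in either. Heat shock and chaperone genes were higher in 14 of 16 cases with a median of 0.05, and Dnajb1, a co-chaperone, had 0.33 ± 0.15. Egr3, a transcription factor of the immediate early genes, had 0.51 ± 0.21 and groups that did not overlap. The unadjusted p of Egr3 was 0.0156 in limma, and 21 of all genes (0.199%) were higher without overlap. On the deposited scale the medians of the matrix, sarcomere and heat shock lists were -0.19, -0.15 and -0.17, below 0 but above that of all tested probe sets.

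The remaining pathway lists had 0 called members. Cell cycle genes had 15 higher and 7 lower, interferon response and chemokine genes 12 and 7, clock genes 6 and 10, and antioxidant enzymes 8 and 10. Lipogenesis had 9 and 5, and cholesterol synthesis 7 and 3. Sodium and volume regulation genes had 4 and 10, with a median of -0.07 (log2). Calcium handling and immediate early genes each had 8 and 6, and glucocorticoid and FoxO responsive genes 8 and 8. Fads2, a fatty acid desaturase, had -1.03 ± 0.40 (SE, log2) from a vehicle mean of 5.66 to 4.63, under the filter level. Mx2, an interferon-induced GTPase, had 1.29 ± 0.90 and Sln, the sarcolipin of atrial muscle, 1.31 ± 0.96. The errors of Mx2 and Sln are large beside their differences. All 3 errors pool the scatter within all 12 dose and time groups. These 3 genes were picked after their values were seen, as the members that lay farthest out in their lists.

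**Figure D4:**
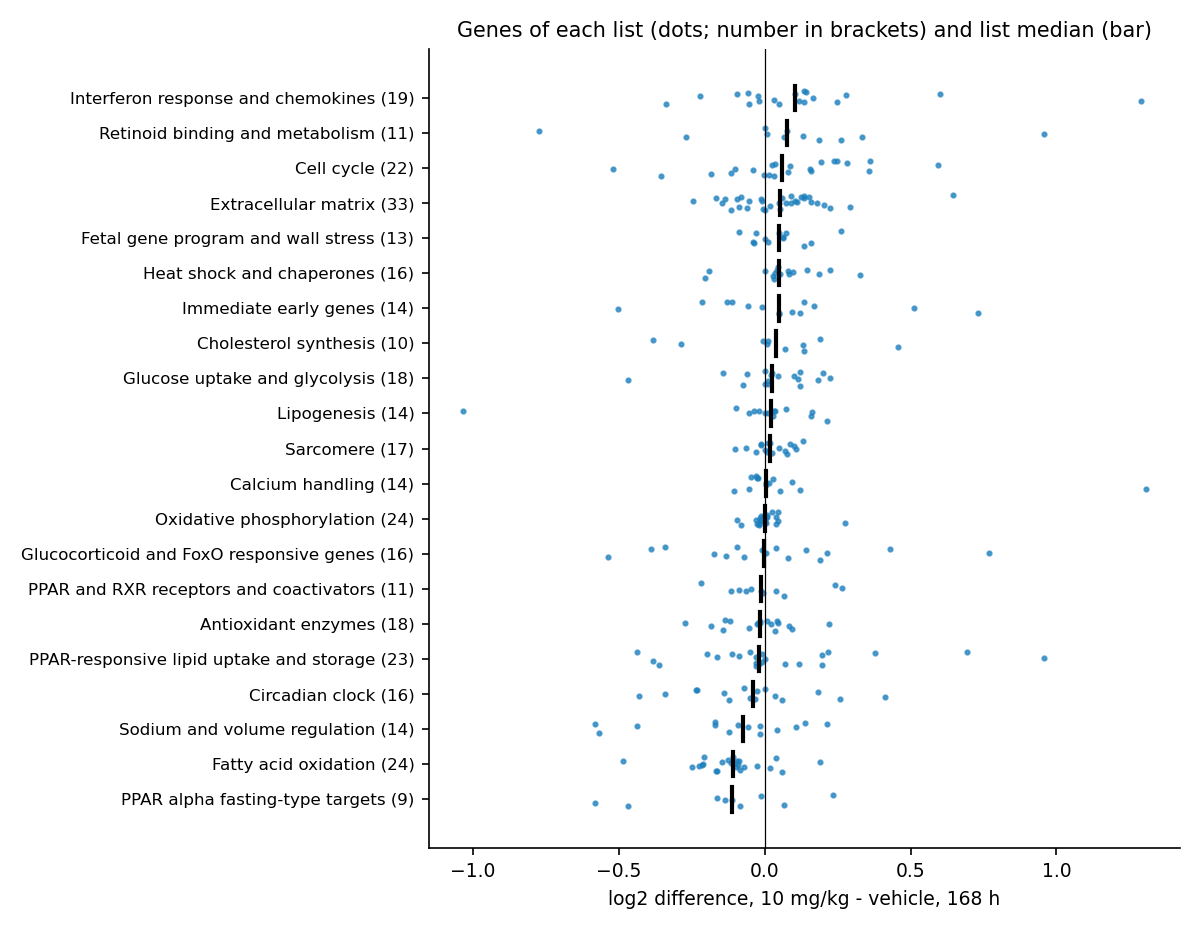
Log2 difference between 10 mg/kg and vehicle at 168 h (x axis) of every tested member (dots) of the 21 pathway lists (y axis, number of members in brackets), with the median of each list as a bar. Medians run from -0.11 for fatty acid oxidation and for PPAR alpha targets to 0.10 for interferon response, and no dot passed the test.

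The 10 genes with the smallest unadjusted p were led by Etv5, a transcription factor of the ETS family. It was 5.68, 5.13, 5.28, 5.25 and 5.48 in vehicle and 6.43, 6.16, 5.90, 6.01 and 6.08 at 10 mg/kg, so all 5 arrays lay above vehicle. Its difference was 0.76 ± 0.19 (SE, log2), with an unadjusted p of 0.000194 and an adjusted p of 0.699 in limma. At 6, 24 and 336 h it was 0.10, -0.08 and -0.35. Osbpl7, an oxysterol-binding protein, had -0.74 ± 0.19, and Dus4l, a tRNA-modifying enzyme, -0.78 ± 0.23, both without overlap. The uncharacterised gene LOC102547352 had 2.22 ± 0.64, with a vehicle mean of 3.89 that lies below the filter level, and 5.51 to 6.50 at 10 mg/kg. At 80 mg/kg 5 arrays had 3.10 to 3.48 and 1 had 6.10, with a mean of 3.75. Insm2, a zinc-finger factor, had 1.39 ± 0.40 from a vehicle mean of 4.21, also below the filter. The other 5, Nol8, Cstf2, Eya1, C5h1orf122 and Zbtb42, had differences of 0.57, -0.49, 0.69, -0.39 and 0.45. A probe set of Zbtb42 of nearly the same brightness gave 0.06. None of the 10 passed adjustment. They were picked by p in these same arrays, so any lack of overlap or steadiness with an array left out is no separate support. Groups did not overlap for 21 of all 10557 genes in each direction (0.199% each). With each array left out in turn the difference of LOC102547352 ran from 2.06 to 2.46 and that of Etv5 from 0.68 to 0.84.

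**Figure D5:**
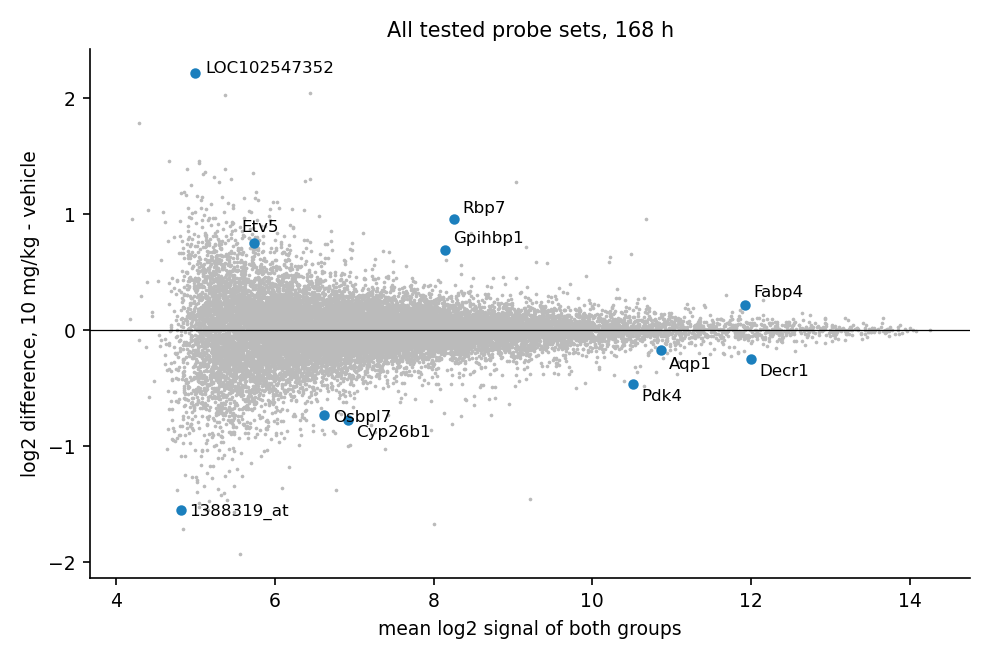
Log2 difference between 10 mg/kg and vehicle (y axis) against the mean log2 signal of both groups (x axis) for all 18625 tested probe sets (grey), with 10 named genes and the first unnamed probe set in blue. Differences scatter more at low signal, 108 probe sets exceed 1 in size, and in 80 of these the lower group mean is under the filter level of 5.03.

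Marker sums of every cell type listed here overlapped between the groups. The 19 measured capillary and vascular endothelium markers include Aqp1, so their sum is no separate gauge for that gene. Their summed linear signals ran from 12550 to 13860 in vehicle and from 11340 to 14240 at 10 mg/kg. Those of 7 ventricular cardiomyocyte markers ran from 55180 to 57600 and from 56320 to 58390, and 8 atrial markers from 6408 to 9198 and from 6376 to 10600. Of the atrial light chains, Myl7 had log2 signals of 6.10 to 8.02 in vehicle and 5.84 to 8.33 at 10 mg/kg. Myl4 had 6.06 to 6.71 in vehicle and 7.08, 7.02, 6.78, 6.52 and 6.95 at 10 mg/kg, where all but replicate 5 lay above every vehicle array. Its difference was 0.36 ± 0.80 (SE, log2). That SE pools the scatter within all 12 dose and time groups. In vehicle at 6 h Myl4 ran from 5.82 to 10.90, far wider than either range at 168 h. The SE thus overstates the scatter of Myl4 in the arrays compared here. Myl4 was picked with its values in view. Of the 8 atrial markers 5 had a higher mean at 10 mg/kg and 3 a lower one. Their differences ran from -0.64 to 1.31, with a median of 0.07 (log2). The sum of 9 white adipocyte markers, of which 4 lie above the filter, was 3708 to 4287 in vehicle and 3748 to 5153 at 10 mg/kg. Fabp4, at a mean log2 signal of 11.81 and 12.03, makes up most of it, so the sum largely repeats that gene. The defining adipocyte genes Adipoq, Plin1 and Cidec lay below the filter. Whether cell mixture takes part in any difference was not tested. Rank correlations between arrays were 0.910 to 0.951 within vehicle, 0.905 to 0.950 within 10 mg/kg and 0.905 to 0.955 between the groups. The excess of 3′ over 5′ actin signal (log2) was 0.71 to 1.09 in vehicle and 0.84 to 1.07 at 10 mg/kg, and the median deposited signal 31.1 to 70.9 and 33.1 to 60.8.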

How the data were processed

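RNA from cardiac muscle was measured on an Affymetrix rat array, 1 array per sample. The authors deposited linear intensity values, 1 signal for each probe set in each array. GCOS and MAS5 are the tools named in the submitters' processing notes; versions are not given in the sources used here. The arrays did not share a scale, so log2 signals were quantile normalized over the 62 arrays, and differences are relative to the other probe sets. After leaving out 57 control probe sets, 18625 of 31042 with a mean log2 signal at or above the 40th percentile (5.03) were tested. A mean for each of 12 dose and time groups was fitted in limma 3.58.1 (R 4.3.3, 50 residual degrees of freedom, median residual SD 0.297). P-values were two-sided and adjusted by Benjamini-Hochberg over all tested probe sets, with calls at adjusted p under 0.05. The number of arrays limits the precision: the median 95% half-width of a difference was 0.374 (log2). Each SE rests on the scatter within all 12 groups, so it can be larger or smaller than the arrays compared would give. Single genes also had an exact permutation test, whose p was not adjusted over genes. Gene names came from the platform annotation (10557 genes), and the brightest tested probe set stood for a gene.

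Genes named by rule were the called ones, a fixed list of metabolic and cardiac genes, and the 10 smallest p-values not called. The 5 smallest p-values called between doses or over times were also named by rule. Lipe, Aqp7, Eci1, Eno3, Egr3, Dnajb1, Myl4, Fads2, Mx2 and Sln fall outside these rules. They are list members that were picked with their values in view. Members and lists were chosen with earlier results of these data known. Lists are described by counts and medians, with no test. Alternatives were other scalings, filters, weights, blocks, fits and each array left out. The procedure was tested on simulated data.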

Additional observations from a re-analysis of the deposited data

Results flagged for a closer look

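In the 10 mg/kg group at 168 h, 2 of 80 groups checked had an array far from the others; chance flags about 1 in 20. Fabp4 was 11.71 (log2) in replicate 4, with the nearest of the other arrays at 12.04. Pdk4 was 9.733 (log2) in replicate 2, with the nearest at 10.31.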

How the results depend on the processing

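The count of 0 called probe sets between 10 mg/kg and vehicle stayed 0 with median scaling, no filter, a filter at the 60th percentile, the 168 h arrays alone, a fit to the 10 arrays and limma-trend. It was 1 on the deposited signals, with array weights and with a block for array cluster, and 0 to 1 with each array left out (1 without vehicle replicate 3 or 10 mg/kg replicate 2 or 3); each time it was the first unnamed probe set, which was lower. The 7 calls between doses became 3 on the deposited signals and 5 to 8 with an array left out. The departure at 168 h from 336 h gave 1 call on the deposited signals and 0 with median scaling. Deviations of same-numbered arrays of vehicle and 10 mg/kg correlated at 0.148, -0.054, -0.187 and -0.117. Those of unlike-numbered arrays ran from -0.241 to 0.358, a range too wide to show whether a number marks anything shared. The labels do not say what the numbers mark. With the replicate block 0 probe sets were called against vehicle and 8 between doses. All tested probe sets together had a median difference from vehicle of -0.25 (log2) on the deposited signals. On the deposited signals the differences of Fabp4 (-0.0084), Fabp5 (-0.13), Slc2a3 (-0.13), Slc2a4 (-0.11), Ppara (-0.17), Nppa (-0.092), Nppb (-0.14), Ccn2 (-0.090), Col1a1 (-0.18), Hrct1 (-0.15) and Ggta1 (-0.16) turned sign. With median scaling so did Cd36 (0.029), Lpl (0.016) and Pparg (0.0067), and Pparg also with array weights (0.073) and the replicate block (0.012). With each array left out, the ranges that crossed 0 were -0.11 to 0.046 for Cd36, -0.088 to 0.00091 for Lpl, -0.17 to 0.0094 for Cpt1a, -0.062 to 0.014 for Cpt1b, -0.11 to 0.11 for Pparg, -0.027 to 0.19 for Ppara, -0.23 to 0.40 for Nppa, -0.079 to 0.27 for Nppb and -0.057 to 0.22 for Col1a1. The cause of these shifts was not tested. Low signals limit the rest: of 108 probe sets with a difference over 1, 80 had a group mean under the filter level.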
